A study of Mus musculus with 10 samples.

Results

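Collagen genes were followed in RNA sequencing of sorted mouse B lineage cells. A gene counted as a collagen when it was protein coding and its symbol had the form Col, a number, the letter a and a number, and 44 of the 21556 protein coding genes did, among 30205 genes in all. By chain structure 11 of the 44 are fibrillar collagens. The other 33 are 9 network, 6 beaded filament, 9 FACIT (fibril-associated), 4 transmembrane, 2 multiplexin, 1 anchoring fibril and 2 unclassed genes.

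The study asked what joint NF-kB and Notch activation does to B cells, with 5 groups of 2 libraries from C57BL/6 mice. Lymphoma cells were sorted from lymphoma tissue and carried 3 alleles, Rosa-NIKdeltaT3flSTOP, Rosa-Notch2ICN and CD19Cre. Doubly activated cells were precursors of marginal zone B cells, sorted from lymph node, with the same 3 alleles, and NF-kB-activated cells were such precursors with Rosa-NIKdeltaT3flSTOP and CD19Cre. Libraries labelled Notch-activated, called Notch-labelled here, carry Rosa-Notch2ICN and CD19Cre and are described as marginal zone B cells of the lymph node, whereas control libraries are wild type precursors without Cre. CD19Cre acts in the B lineage and not in fibroblasts or vessels. Genotype and labelled cell stage therefore differ together between Notch-labelled and control libraries and cannot be told apart. Whether libraries of the same group stem from different mice is not stated, and p-values therefore reflect spread between libraries alone, which may be technical. Ages are not given in the sources used here.

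Collagens are extracellular proteins whose chains wind into a triple helix. Fibrillar chains pack into the cables of connective tissue, type IV chains form the mesh of basement membranes, and type VI chains form beaded filaments next to cells. In lymph nodes these proteins are made mainly by fibroblastic reticular cells and the cells of vessel walls, and B cells move along the network without being its main source. A collagen transcript in a sorted B cell library can thus be read beside markers of stromal cells.

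The libraries held 16380889 to 23102081 estimated counts. The Notch-labelled libraries stood apart. Over the genes tested, which are not independent replicates, log2(CPM + 1) correlated at 0.865 to 0.892 between them and the other 8 libraries, against 0.912 to 0.983 between groups without them. Notch2, the gene of the introduced allele, went against their label, with 284 and 278 CPM (count as a share of the library's total, TMM-scaled) in Notch-labelled libraries against 652 and 690 CPM in control libraries (log2 -1.25 ± 0.08 SE, adjusted p = 9.55e-08, edgeR), although the allele covers only part of the gene. Other carriers of the allele did not show raised Notch2 either. Lymphoma libraries had 155 and 178 CPM. Doubly activated libraries had 702 and 753 CPM and were not called against control (log2 0.12 ± 0.08 SE, adjusted p = 0.376, edgeR). Markers of B cells were read in all groups. Summed over 10 genes they were 6137 and 5890.1 CPM in lymphoma, 3918 and 3666 CPM in Notch-labelled, and 10779 to 13152 CPM in the other 6 libraries.

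Summed collagen RNA set the Notch-labelled libraries apart from every other library. The 44 genes together had 84.0 and 84.0 CPM in lymphoma, 51.4 and 50.6 CPM in doubly activated, 46.3 and 45.7 CPM in NF-kB-activated, 1038 and 1372 CPM in Notch-labelled, and 61.01 and 72.8 CPM in control libraries. Both Notch-labelled libraries lay far above the range of 45.7 to 84.0 CPM of the other 8 libraries, with no overlap. Among those 8, lymphoma libraries were highest, doubly activated and NF-kB-activated libraries lowest, and control libraries between them with the widest gap between replicates outside the Notch-labelled pair. The log2 ratio of summed CPM was 0.72 for lymphoma against doubly activated, 0.33 for lymphoma against control, -0.39 for doubly activated against control, -0.54 for NF-kB-activated against control and 4.17 for Notch-labelled against control libraries, values given without a test. The order of lymphoma and control depended on the unit: in summed TPM (the authors' level per transcript length) the log2 ratio was -0.18, with 38.1 and 36.5 TPM in lymphoma and 36.5 and 48.0 TPM in control libraries.

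**Figure D1:**
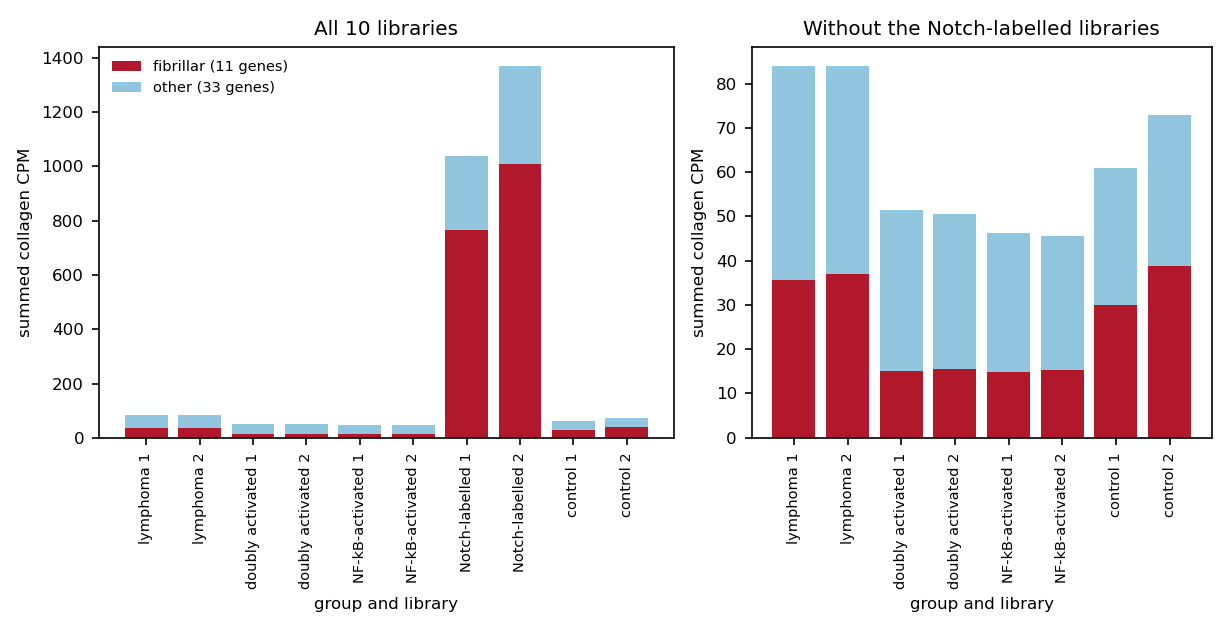
Summed CPM of the 44 collagen genes per library (y axis, from 0), split into fibrillar and other genes, for all 10 libraries (left) and without the Notch-labelled libraries (right). The Notch-labelled bars reach 1038 and 1372 CPM, and the other 8 lie between 45.7 and 84.0 CPM.

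Fibrillar genes made up most of the sum in Notch-labelled libraries. Their share of collagen CPM was 42.5% and 43.9% in lymphoma libraries. It was 29.5% and 30.9% in doubly activated cells, 32.2% and 33.4% in NF-kB-activated cells and 73.8% and 73.4% in Notch-labelled cells, against 49.0% and 53.3% in control cells. The shares of the 2 libraries of a group lay closer to each other than to those of any other group, except that doubly activated and NF-kB-activated libraries were near each other. Per length, the fibrillar share of summed TPM was 71.6% and 69.7% in Notch-labelled libraries and 14.96% to 29.9% in the other 8. The median TPM of a fibrillar gene was 8.39 and 8.77 in Notch-labelled libraries, against 0.446 and 0.359 TPM for the other collagens there. In the other 8 libraries both medians were near 0, at 0.0154 to 0.113 TPM for fibrillar and 0.0194 to 0.0599 TPM for other collagens.

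**Figure D2:**
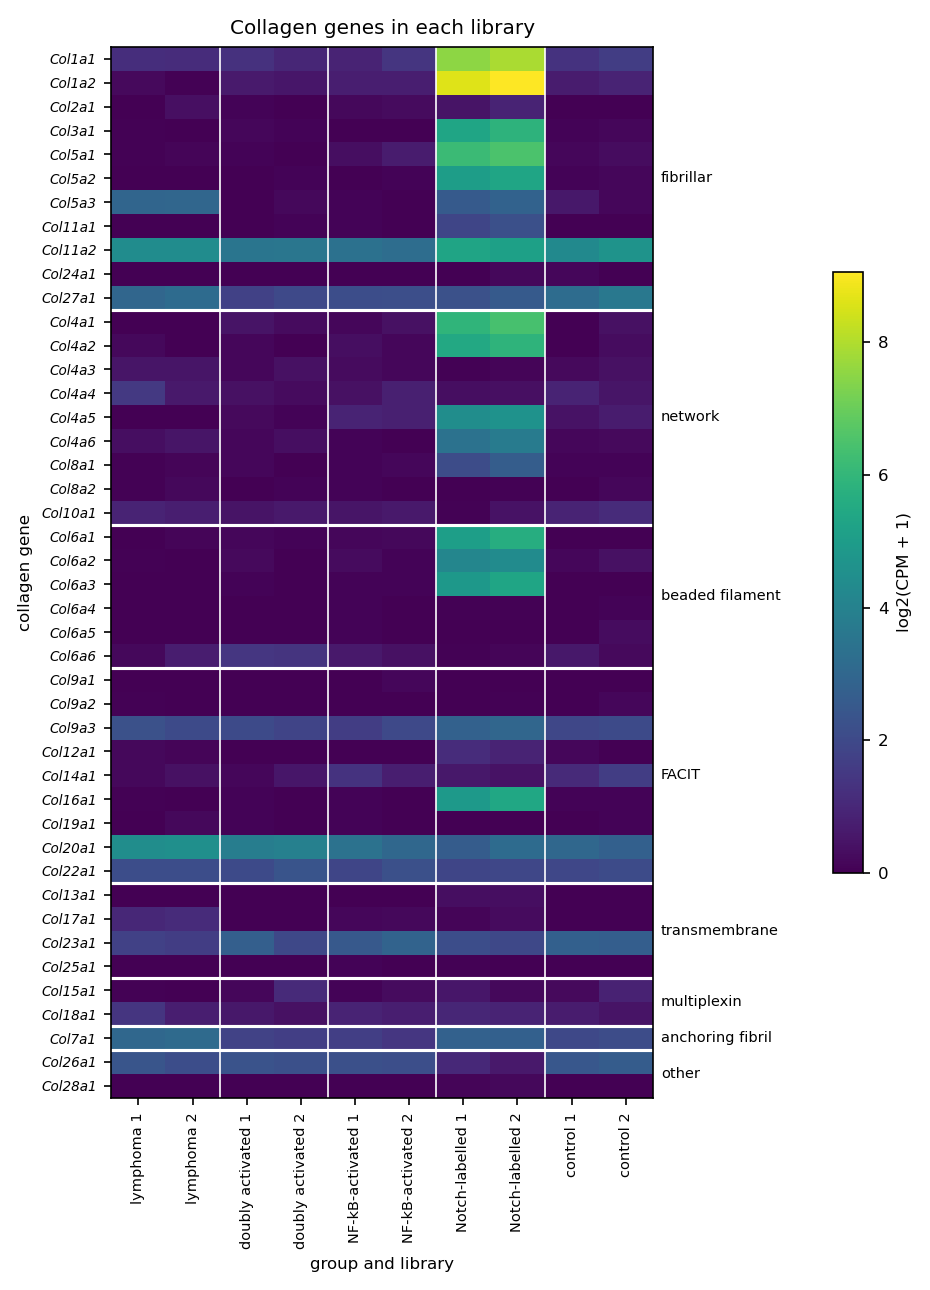
Level of each of the 44 collagen genes (rows, grouped by structural class) in each of the 10 libraries (columns), coloured by log2(CPM + 1). The brightest block holds fibrillar, type IV and type VI genes in the 2 Notch-labelled libraries, and a few genes such as Col11a2, Col20a1 and Col7a1 are visible in all groups.

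Most collagens were close to the detection limit outside the Notch-labelled libraries. With at least 10 counts in both libraries, lymphoma had 14 members, doubly activated cells had 10, NF-kB-activated cells had 13, Notch-labelled cells had 26 and control cells had 12. Of the 26 in Notch-labelled cells, 9 were fibrillar and 17 other, and of the 12 in control cells 4 were fibrillar and 8 other. A set of 12 members reached 10 counts in both Notch-labelled libraries and in none of the other 8, among them Col3a1, Col4a1, Col4a2 and the type VI chains Col6a1, Col6a2 and Col6a3. How many of all genes meet these rules was not counted. With at least 20 counts over both libraries of a group, Notch-labelled libraries had 27 collagens and 14163 of the genes tested. Control libraries had 13 and 13008. A filter on low counts kept 32 of the 44 members for testing, 9 fibrillar and 23 other. The 12 left out (Col2a1, Col4a3, Col6a4, Col6a5, Col8a2, Col9a1, Col9a2, Col13a1, Col19a1, Col24a1, Col25a1 and Col28a1) had at most 43 counts over all 10 libraries, and 13 of the 32 passed only because of their level in the Notch-labelled libraries.

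Notch-labelled libraries were compared with control libraries. Of the 32 members tested, 21 were higher and 5 lower (adjusted p under 0.05), against 34.2% of all genes called higher and 29.5% called lower; 26 of 32 is 81.2%, and 63.7% of all genes were called. Because 13 members had entered through these libraries, where they are high, the counts over the 32 are set in large part by the filter, and no median over them is given. Of the 19 members that pass the filter without these libraries 8 were higher and 5 lower, with a median log2 of 0.03, beside 0.07 over all genes tested. Of these, 5 are fibrillar, with 4 higher (Col1a1, Col1a2, Col5a3 and Col11a2) and 1 lower (Col27a1), and 14 are other collagens, with 4 higher and 4 lower.

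The fibrillar chains of type I collagen, the main collagen of connective tissue, were the most abundant. Col1a2 (ENSMUSG00000029661, chromosome 6, 4504814 to 4541544, plus strand, GRCm38) had 391 and 534 CPM in Notch-labelled against 0.615 and 0.870 CPM in control libraries, and 0.0489 to 0.681 CPM in the other 6. Both Notch-labelled libraries stood above the rest without overlap, and Col1a2 was higher than in control by log2 9.26 ± 0.22 (SE; adjusted p = 2.5e-10, edgeR), 623-fold by mean CPM. Col1a1 (chromosome 11, 94936224 to 94953042) had 182 and 237 CPM in Notch-labelled and 1.54 and 2.12 CPM in control libraries (log2 6.82 ± 0.22, adjusted p = 8.17e-10), and 0.891 to 1.62 CPM elsewhere. The pair of type I chains did not stand at a common level per length: the ratio of Col1a1 to Col1a2 TPM was 0.406 and 0.399 in the Notch-labelled libraries, with 44.8 and 59.3 TPM for Col1a1 beside 110 and 149 TPM for Col1a2.

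The remaining fibrillar chains of connective tissue moved in the same direction. Col3a1, the chain of type III collagen of reticular fibres, had 793 and 1157 counts in Notch-labelled libraries against 1 and 2 in control libraries, a 560-fold ratio of CPM with an exact 95% counting interval of 191 to 2716. Col5a1 and Col5a2, type V chains that join type I fibrils, were at 71.2 and 88.9 CPM and at 32.2 and 39.0 CPM in Notch-labelled libraries, against 0.123 and 0.218 CPM and 0.0615 and 0.109 CPM in control libraries. Neither overlapped between the groups (adjusted p = 8.66e-10 for Col5a1 and 2.95e-08 for Col5a2). Col11a1, a chain of cartilage type XI collagen, had 55 and 74 counts in Notch-labelled libraries and none in control libraries, which is at least 37.0-fold higher with 3 counts across both control libraries as the floor. Col5a3 (18.6-fold) and Col11a2 (1.71-fold) were also higher, whereas Col27a1 was lower, with 3.75 and 4.94 CPM in Notch-labelled against 8.30 and 11.3 CPM in control libraries (log2 -1.17 ± 0.27, adjusted p = 0.00207).

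Several type IV and type VI chains were also higher in Notch-labelled libraries. Col4a1 and Col4a2, the common basement membrane chains, had 60.7 and 84.4 CPM and 43.5 and 58.2 CPM in Notch-labelled libraries, against 0 and 0.326 CPM and 0 and 0.218 CPM in control libraries. Both were called higher (adjusted p = 6.2e-07 for Col4a1 and 2.83e-07 for Col4a2). The fitted log2 of Col4a1, 8.66, moved to 7.76 without control library 1 and 13.4 without control library 2, the control counts being 0 and 6. These neighbours on chromosome 8 point away from each other and overlap by 22 bases at their starts in the annotation. Col4a5 and Col4a6, the neighbouring type IV chains of chromosome X, had 20.99 and 23.4 CPM and 9.60 and 12.8 CPM in Notch-labelled libraries, against 0.369 and 0.598 CPM and 0.123 and 0.163 CPM in control libraries, and both were called. Col4a3 and Col4a4, the third pair of neighbours, did not share this pattern: Col4a4 was at 0.250 and 0.297 CPM in Notch-labelled and 0.861 and 0.435 CPM in control libraries without a call, and Col4a3 was too low to test.

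Col6a1, a type VI chain of the matrix around cells (ENSMUSG00000001119, chromosome 10, 76708792 to 76726168, minus strand), had 660 and 1002 counts in Notch-labelled libraries, 0 and 0 in control libraries and 0 to 3 in the other 6. That is 32.99 and 49.5 CPM in Notch-labelled libraries, at least 477-fold above control (adjusted p = 2.6e-08). Its partners Col6a2 and Col6a3 were at 16.8 and 19.6 CPM and at 27.5 and 39.2 CPM in Notch-labelled libraries, against 0.123 and 0.326 CPM and 0 and 0 CPM in control libraries. Per length the type VI chains Col6a1, Col6a2 and Col6a3 stood at 11.9 and 18.1, 6.14 and 7.16, and 7.67 and 8.72 TPM in Notch-labelled libraries, within a few-fold of each other. Col6a6, another type VI chain, was instead highest in doubly activated libraries, at 31 and 24 counts, with 1 and 2 counts in Notch-labelled libraries.

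Fibril-associated and other chains gave a mixed picture. Col16a1, a FACIT collagen, had 28.1 and 40.8 CPM in Notch-labelled and 0.0615 and 0.0544 CPM in control libraries (adjusted p = 2.1e-08), with 1 count in each control library. Col8a1, Col12a1, Col9a3, Col7a1 and Col17a1 were called higher too, from 1.93-fold for Col7a1, the anchoring fibril chain, to 76.2-fold (exact counting interval 20.8 to 634) for Col8a1, which stood on 2 control counts. The call for Col17a1 rested on 2 and 4 counts in Notch-labelled libraries. Col26a1, Col10a1, Col14a1 and Col23a1 were called lower, Col26a1 most, at 1.0496 and 0.544 CPM in Notch-labelled against 4.49 and 5.28 CPM in control libraries (log2 -2.61 ± 0.38, adjusted p = 6.2e-05). Col22a1, Col15a1, Col18a1, Col4a4, Col6a6 and Col20a1 were tested and not called in this comparison.

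To show the DNA ahead of members that moved together in Notch-labelled libraries, and of Col5a3, which was also high in lymphoma, the sequence upstream of the start site is given 5′ to 3′ from RefSeq (GRCm38.p6). The stretch shown ends at the GENCODE start of the first-numbered transcript, which for Col1a2 lies inside the annotated gene, because another transcript starts further upstream, and capitals mark motifs found on either strand. These are the GC box GGGCGG, which reads CCGCCC on the reverse strand, the TATA box motif TATAAA, and the CCAAT box motif CCAAT, and no copies overlap.
Col1a2, chr6:4505368-4505492, plus strand: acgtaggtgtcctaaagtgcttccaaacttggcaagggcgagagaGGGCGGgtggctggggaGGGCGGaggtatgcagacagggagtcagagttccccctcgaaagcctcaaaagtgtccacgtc
Col3a1, chr1:45311288-45311537, plus strand: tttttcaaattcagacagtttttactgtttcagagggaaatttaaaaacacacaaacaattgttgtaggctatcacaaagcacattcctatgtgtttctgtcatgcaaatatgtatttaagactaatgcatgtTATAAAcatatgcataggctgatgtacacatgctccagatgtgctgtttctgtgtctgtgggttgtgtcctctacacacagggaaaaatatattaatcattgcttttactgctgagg
Col6a1, chr10:76726169-76726294, minus strand: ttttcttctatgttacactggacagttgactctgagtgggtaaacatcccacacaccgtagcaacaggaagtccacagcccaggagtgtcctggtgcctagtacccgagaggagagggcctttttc
Col5a3, chr9:20815068-20815317, minus strand: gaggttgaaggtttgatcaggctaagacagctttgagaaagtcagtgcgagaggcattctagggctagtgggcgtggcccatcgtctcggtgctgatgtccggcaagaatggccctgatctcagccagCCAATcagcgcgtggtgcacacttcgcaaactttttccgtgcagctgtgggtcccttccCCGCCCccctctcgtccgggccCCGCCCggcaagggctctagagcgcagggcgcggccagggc

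No motif was shared by all of these stretches. Col1a2 held GGGCGG at 2 places, Col3a1 held TATAAA once, Col5a3 held CCAAT once and GGGCGG at 2 places on the reverse strand, and Col6a1 held none of the motifs in the 126 bases shown. Over the 250 bases before the RefSeq start, 35 of the 44 members had an entry. GGGCGG was present in 60% of these and in 32.9% of 27025 promoters, CCAAT in 34.3% and 34.5%, and TATAAA in 14.3% and 13%, which describes letters and not binding. For Col1a2 and Col6a1 the RefSeq start lies downstream of the stretch shown. Col1a2 held CCAAT in its 250 bases, though not in that stretch.

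Within the Notch-labelled pair, library 2 held more collagen RNA than library 1. Summed CPM was 1372 in library 2 and 1038 in library 1, a ratio of 1.32, while the median gene tested had a ratio of 0.998. The 17 members that were called and over 16-fold above control had a median ratio of 1.33. For 13 of them the exact 95% interval of the ratio, which covers counting error only, lay above 1. The 10 remaining members with 20 or more counts had a median ratio of 1.004. For 9 of them the interval included 1, and Col20a1 was the exception, at 1.54 (1.20 to 1.99). How many of all genes have an interval above 1 was not counted. Low counts widen the interval. It included 1 for Col27a1 (1.32, 0.968 to 1.80) and Col2a1 (2.23, 0.921 to 5.92) of the 10. The same held for Col11a1 (1.33, 0.926 to 1.92) of the 17. The numbers of intervals above 1 are thus set in part by depth and cannot by themselves separate the sets. Genes of the fibroblast list had a median ratio of 1.29 over 9 genes and B cell genes a median of 0.949 over 10 genes. Col11a2, abundant but found in every library, did not follow, at 0.919 (0.829 to 1.02), beside 1.37 (1.33 to 1.41) for Col1a2 and 1.502 (1.36 to 1.66) for Col6a1.

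**Figure D3:**
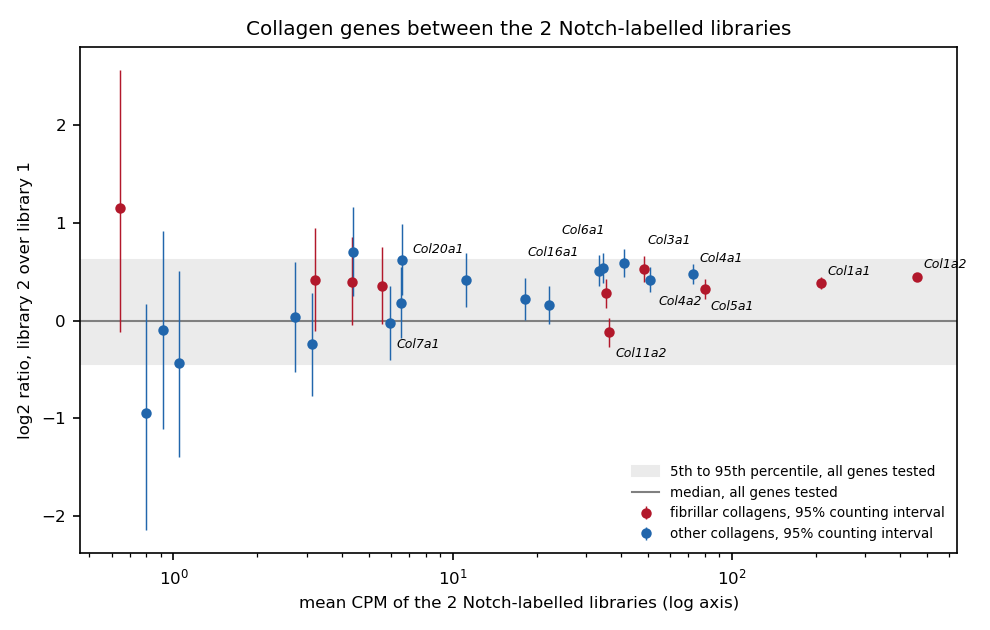
Log2 ratio of CPM in Notch-labelled library 2 over library 1 (y axis) against mean CPM (x axis, log scale) for 27 collagens with at least 20 counts, with 95% counting intervals. Col1a2, Col6a1 and most other abundant collagens lie above the median of all genes tested, while Col11a2 and Col7a1 lie near it.

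Markers of stromal cells moved with the collagens in the Notch-labelled libraries. Of 12 fibroblast genes 10 were tested and 9 were higher, beside 34.2% of all genes. The summed level of the 12 was 175 and 221 CPM in Notch-labelled libraries against 15.7 to 26.3 CPM in the other 8. Sparc, a collagen-binding matrix protein, had 76.3 and 96.8 CPM in Notch-labelled and 0.246 and 0.218 CPM in control libraries (adjusted p = 4.7e-10), and the receptor gene Pdgfrb had 13.8 and 17.4 CPM in Notch-labelled libraries and no control count. Dcn and Lum, small proteoglycans that coat fibrils, were at 5.70 and 8.36 CPM and at 0.850 and 1.63 CPM in Notch-labelled libraries and at 0 in all other 8. Such genes passed the filter only through the Notch-labelled libraries, so the count of 9 is set in part by the filter. Pdgfra was at 19.7 and 25.4 CPM in Notch-labelled libraries, against 0 to 0.185 CPM elsewhere, while Postn stayed at 0.200 and 0.148 CPM. In a sorted sample, fewer cells of a type and less RNA per cell cannot be told apart, and the part of stromal cells in these collagen levels was not tested.

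Other cell types gave partial marker sets, to be read beside 34.2% of all genes called higher and 29.5% called lower. Of the mural cell genes 4 of 5 tested were higher, with Acta2 at 2.50 and 3.31 CPM in Notch-labelled against 0.307 and 0.272 CPM in control libraries, while Rgs5, a defining pericyte gene, stayed at 0.350 and 0.247 CPM. Of the lymph node stroma genes both that were tested, Pdpn and Tnfsf11, were higher, but the reticular cell chemokine genes Ccl19 and Ccl21a were at or near 0 in every library. Pdpn and the mural genes Acta2 and Cspg4 passed the filter only through the Notch-labelled libraries, so these counts are set in part by the filter. Of the endothelial genes 2 of 5 tested were higher (Prox1 and Egfl7) and 2 lower (Pecam1 and Vwf), 40% each and near the shares of all genes. Cdh5 was at 4.45 and 3.56 CPM in Notch-labelled and 4.37 and 2.72 CPM in control libraries, and Emcn and Lyve1 were at 0 in all 10. Of the epithelial genes all 3 tested were higher, Cdh1 at 14.6 and 15.97 CPM in Notch-labelled and 0.246 and 0.435 CPM in control libraries. Egfl7 too passed the filter only through the Notch-labelled libraries, and Cdh1 averaged 0.303 to 0.517 CPM in the other groups. The endothelial and epithelial counts may thus also be set in part by the filter. Of the blood cell lists, 6 of 10 macrophage genes were lower, while 3 of 8 neutrophil (37.5%, near the share of all genes), 3 of 5 erythroid and the 1 platelet gene tested were higher. The macrophage sum was 41.3 and 38.8 CPM in Notch-labelled and 51.8 and 232 CPM in control libraries, so its gap to control lay mainly in control library 2. Of 7 T cell genes 3 were higher and 1 lower. Of 10 B cell genes 8 were lower and 2 higher. The part of these cells in the collagen levels was not tested.

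Most genes tested for folding, processing and crosslinking collagen were higher as well. Of 31 such genes 28 were tested, and in Notch-labelled libraries 22 were higher and 2 lower than in control, 78.6% higher beside 34.2% of all genes. Genes near 0 outside the Notch-labelled libraries, such as Serpinh1 and Lox, passed the filter only through them. These counts are therefore set in part by the filter, and no median over them is given. Serpinh1, the collagen chaperone HSP47, had 56.8 and 76.1 CPM in Notch-labelled and 0 and 0.163 CPM in control libraries (adjusted p = 7.01e-09). P4hb, a subunit of prolyl hydroxylase and a general disulfide isomerase, had 406 and 415 CPM in Notch-labelled and 162 and 157 CPM in control libraries. The crosslinking oxidase Lox had 27.5 and 38.3 CPM in Notch-labelled and 0 and 0.0544 CPM in control libraries, and the procollagen protease Bmp1 had 42.4 and 40.2 CPM and 0.0615 and 0 CPM. Mia3 and Colgalt1 were the 2 lower ones.

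Genes for binding, breaking down and accompanying collagen were counted against the same 34.2% of all genes called higher. Of the receptors 5 of 8 tested (62.5%) were higher, 3 were not called and none was lower, with the smallest p for Itgb1, the shared integrin beta chain (199 and 235 CPM in Notch-labelled, 51.2 and 57.9 CPM in control libraries), and Mrc2, a collagen uptake receptor (29.3 and 39.8 CPM, against 0.0615 and 0.272 CPM). Of the breakdown genes 5 of 9 (55.6%) were higher and 4 not called, with the gelatinase Mmp2 at 44.0 and 61.7 CPM in Notch-labelled against 0.123 and 0.109 CPM in control libraries, and its inhibitor Timp1 at 7.997 and 8.26 against 0.184 and 0 CPM. All 11 matrix partners tested were higher, among them the proteoglycan gene Bgn (88.9 and 117 CPM, against 0.184 and 0.435 CPM) and the fibronectin gene Fn1 (225 and 307 CPM, against 6.09 and 8.21 CPM). Genes near 0 outside the Notch-labelled libraries, such as Mrc2, Mmp2 and the matrix partner Lama4, passed the filter only through them. The counts of these lists are therefore set in part by the filter.

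The genes most like Col1a2 over the 10 libraries, by Pearson's r of log2(CPM + 1) and outside the collagens, were Fbln2, C1s1, Rgs16, Foxf2 and Serpinh1, with r of 0.998 to 0.999. Fbln2, a fibulin of the matrix, had 59.2 and 71.8 CPM in Notch-labelled libraries and at most 0.653 CPM elsewhere. Those most like Col6a1 were Cdh19, Fermt2, Pxdn, Tspan11 and Fibin, the peroxidasin gene Pxdn at 17.0 and 24.5 CPM in Notch-labelled libraries. With 2 libraries high and 8 near 0, such a correlation says only that the genes share this step.

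Lymphoma was compared with doubly activated cells of the same genotype. Of 32 members 7 were higher and 6 lower, 40.6% against 51.3% of all genes, with 26.1% of all genes higher and 25.2% lower. The members' median log2 was 0.03, or 0.32 over 22 members with counts of 0 at their bound, and that of all genes 0.01. Members that passed the filter only through the Notch-labelled libraries had few counts in these groups. Of the 19 others 7 were higher and 5 lower, with a median log2 of 0.25. The share of 40.6% is thus set in part by the filter. Leaving out 1 library of these groups moved the count of 13 to 6 without doubly activated library 1 or lymphoma library 1, to 7 without doubly activated library 2 and to 8 without lymphoma library 2.

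The 7 that were higher in lymphoma were Col5a3, Col11a2, Col7a1, Col27a1, Col17a1, Col20a1 and the type IV chain Col4a4. Col4a4 had 39 and 11 counts in lymphoma, 6 and 3 in doubly activated and 14 and 8 in control libraries. Its ratio of lymphoma library 2 to library 1 was 0.298 (exact counting interval 0.138 to 0.593), so its level in lymphoma lay mainly in library 1. Col5a3, a type V chain (chromosome 9, 20770050 to 20815067, minus strand), had 147 and 143 counts in lymphoma libraries, 0 and 2 in doubly activated and 8 and 2 in control libraries. In CPM it was at 6.80 and 6.99 in lymphoma, and the nearest level was 4.90 and 6.28 CPM in Notch-labelled libraries. It was 115-fold above doubly activated cells (exact counting interval 31.4 to 950; adjusted p = 1.6e-05) and 22.9-fold above control cells (log2 4.53 ± 0.62, adjusted p = 5.8e-05). The size of both differences depended on few counts: against control the fitted log2 was 5.90 without control library 1 and 3.79 without control library 2, and against doubly activated cells 5.65 without library 1 and 10.05 without library 2 of that group, beside 6.68 with all. The call held in each. The other type V chains were low in lymphoma, Col5a1 at 0.0463 and 0.0977 CPM and Col5a2 at 0 in both libraries.

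Col17a1, a transmembrane collagen of epithelial hemidesmosomes, had 22 and 24 counts in lymphoma libraries and none in doubly activated or control libraries. It was at least 12.1-fold above doubly activated and at least 12.6-fold above control cells (adjusted p = 0.00126 and 0.0011). Col7a1, the anchoring fibril chain of epithelial basement membranes, was at 7.17 and 7.67 CPM in lymphoma, against 2.45 and 2.22 CPM in doubly activated and 2.89 and 3.32 CPM in control libraries, and was called higher in both comparisons (adjusted p = 0.000317 and 0.00191). Col17a1 and Col7a1 separated lymphoma from both other groups without overlap. Of 3 epithelial markers tested, Epcam and Krt18 were called higher in lymphoma in both comparisons, beside 26.1% of all genes against doubly activated and 27.8% against control. Epcam was at 19.8 and 14.7 CPM in lymphoma, 11.2 and 9.75 CPM in doubly activated and 9.35 and 5.39 CPM in control libraries, while Krt8 was at 0 in all 6. The remaining tested marker, Cdh1, was called in neither comparison. Epcam was also higher in NF-kB-activated cells than in control (mean 15.8 CPM, adjusted p = 0.00676, edgeR), where Col7a1 was at 2.20 and 1.68 CPM. The part of epithelial cells in the collagen calls was not tested.

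Col20a1, a FACIT collagen, was highest in lymphoma and next highest in doubly activated cells. It had 20.5 and 21.9 CPM in lymphoma, 13.3 and 14.4 CPM in doubly activated, 9.80 and 7.12 CPM in NF-kB-activated, 5.20 and 8.01 CPM in Notch-labelled and 7.07 and 5.93 CPM in control libraries. Lymphoma lay above doubly activated and doubly activated above all remaining libraries, while NF-kB-activated, Notch-labelled and control libraries overlapped or nearly so. It was called higher in lymphoma against control (log2 1.71 ± 0.23, adjusted p = 4.4e-05) and in doubly activated against control (log2 1.09 ± 0.23, adjusted p = 0.00507). The call against doubly activated cells (log2 0.62 ± 0.22, adjusted p = 0.0299) was lost without any single library of these groups (adjusted p = 0.0809 to 0.141).

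Col11a2, a type XI chain, and Col27a1, a fibrillar chain of cartilage, were read in all groups and were lowest in doubly activated and NF-kB-activated cells. Col11a2 (chromosome 17, 34039437 to 34066685) had 20.4 and 20.3 CPM in lymphoma, 10.5 and 10.9 CPM in doubly activated, 9.38 and 8.49 CPM in NF-kB-activated, 38.0 and 35.0 CPM in Notch-labelled and 18.6 and 24.04 CPM in control libraries. Doubly activated and NF-kB-activated libraries lay below all others. It was higher in lymphoma than in doubly activated cells (log2 0.93 ± 0.15, adjusted p = 0.000202), and lymphoma overlapped control (log2 -0.07 ± 0.14, adjusted p = 0.726). Col27a1 had 6.89 and 7.92 CPM in lymphoma, 2.39 and 3.01 CPM in doubly activated, 3.41 and 3.56 CPM in NF-kB-activated and 8.30 and 11.3 CPM in control libraries. It was higher in lymphoma than in doubly activated cells (log2 1.46 ± 0.28, adjusted p = 0.000848).

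**Figure D4:**
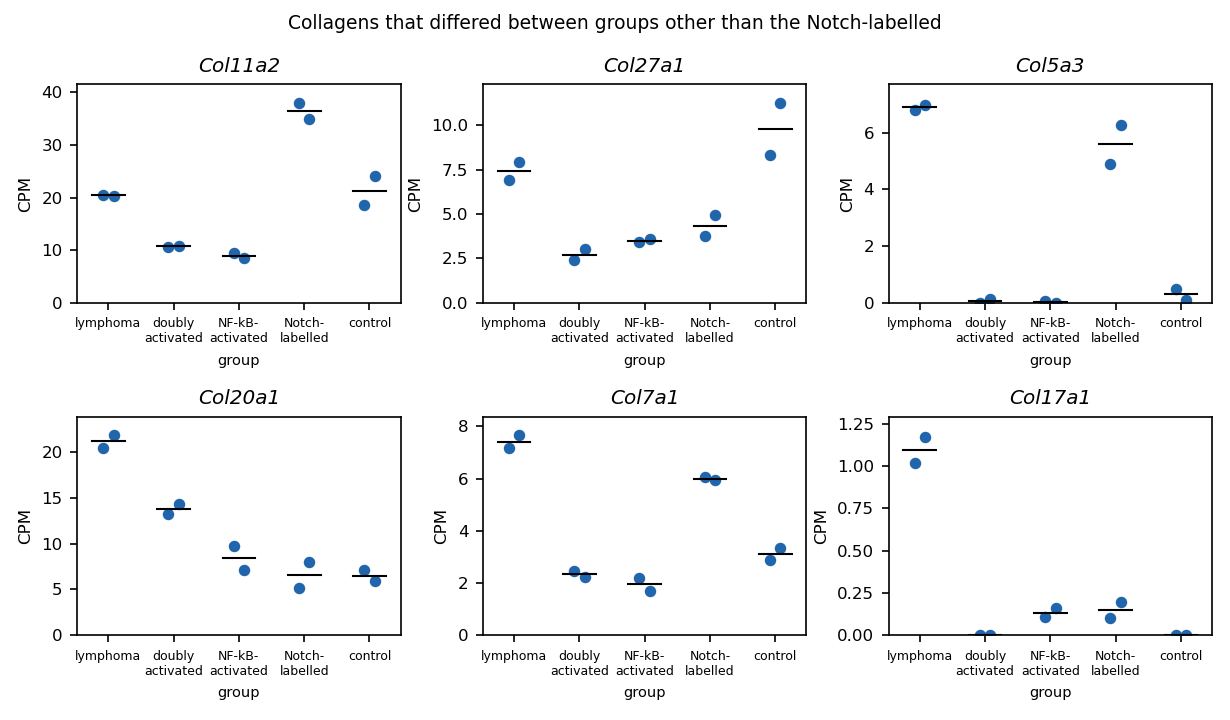
CPM per library (points, 2 a group) with the group mean (bar) for 6 collagens that were called in comparisons other than Notch-labelled against control, each on its own axis from 0. Col5a3 and Col17a1 were near 0 in doubly activated and control libraries and high in lymphoma, while Col11a2 and Col27a1 were lowest in doubly activated and NF-kB-activated libraries.

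Several of the lower calls in lymphoma rested on few counts. Col1a2 had 4 and 1 counts in lymphoma libraries, 10 and 7 in doubly activated and 10 and 16 in control libraries (adjusted p = 0.032 against doubly activated and 0.00534 against control). The call against control was lost without control library 2 (adjusted p = 0.0731), and that against doubly activated cells without lymphoma library 2, either doubly activated library or either control library (adjusted p = 0.063 to 0.171). Without lymphoma library 1 the log2 of Col1a2 moved to -3.22 against doubly activated cells, beside -2.05 with all libraries, and to -3.77 against control, beside -2.59, and without lymphoma library 2 it was -1.43 and -1.98. Col1a1, with 28 and 25 counts in lymphoma, 26 and 15 in doubly activated and 25 and 39 in control libraries, was not called in either. Col4a5 had no count in lymphoma, 3 and 1 counts in doubly activated and 6 and 11 in control libraries, and was at least 6.78-fold lower than control (adjusted p = 0.000267). Its call against doubly activated cells (adjusted p = 0.0234) was lost without either lymphoma library or doubly activated library 1 (adjusted p = 0.0931 to 0.186). Col4a1, Col6a6, Col15a1 and Col23a1 were also called lower against doubly activated cells, Col4a1 not without any single library of these groups (adjusted p = 0.0634 to 0.17). Col6a1 had 0 and 2 counts in lymphoma and was called in neither comparison.

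Against control, 4 members were higher in lymphoma (Col20a1, Col5a3, Col17a1 and Col7a1) and 5 lower (Col4a5, Col1a2, Col23a1, Col14a1 and Col15a1), 28.1% of those tested beside 53.4% of all genes (27.8% higher, 25.6% lower). The members' median log2 was -0.20, or -0.34 over 25 members with counts of 0 at their bound, and that of all genes 0.02. Of the 19 members that pass the filter without the Notch-labelled libraries 4 were higher and 5 lower, with a median log2 of -0.07. The share of 28.1% is thus set in part by the filter. Col23a1, a transmembrane collagen, was at 2.36 and 2.10 CPM in lymphoma and 5.90 and 5.55 CPM in control libraries (log2 -1.36 ± 0.35, adjusted p = 0.0058). Col14a1, a FACIT collagen, was at 0.139 and 0.342 CPM in lymphoma and 1.11 and 2.12 CPM in control libraries, and lost its call without lymphoma library 1 or control library 2 (adjusted p = 0.0862 and 0.0749), and its log2 of -2.73 moved to -3.48 without lymphoma library 2.

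Genes for collagen processing and binding were also compared in lymphoma. Of the collagen processing genes 11 were higher and 2 lower of 28 against doubly activated cells, and 10 higher and 2 lower against control. That is 39.3% higher and 7.14% lower beside 26.1% and 25.2% of all genes against doubly activated cells, and 35.7% and 7.14% beside 27.8% and 25.6% against control. Genes that passed the filter only through the Notch-labelled libraries were near 0 in these groups. Among them were Serpinh1 and Lox, the receptor gene Mrc2 and the fibroblast genes Dcn and Lum. The counts and shares of these lists are therefore set in part by the filter. P4hb had 582 and 560 CPM in lymphoma, 152 and 147 CPM in doubly activated and 162 and 157 CPM in control libraries, and the cyclophilin gene Ppib had 327 and 301, 148 and 149, and 139 and 132 CPM in the same groups; both proteins also serve other secreted proteins. Serpinh1, which serves collagen, had no count in lymphoma. Of 8 receptor genes 2 were higher (Ddr1 and Itgb1) and 2 lower (Ddr2 and Itga10) against doubly activated cells, and 3 higher (Lair1, Ddr1 and Itgb1) and 1 lower (Itga10) against control. The collagen receptor kinase gene Ddr1 was at 19.3 and 16.1 CPM in lymphoma against 0.0557 and 0.0654 CPM in doubly activated libraries (adjusted p = 1.78e-07), and the related kinase gene Ddr2 at 0.231 and 0.733 CPM against 1.61 and 1.18 CPM (adjusted p = 0.0209). Of 10 fibroblast genes tested 1 was higher (Pdgfrb) and 2 lower (Fstl1 and Dpt) against doubly activated cells, and 1 higher (Pdgfrb) and 1 lower (Fstl1) against control. Most of the fibroblast sum of 15.96 and 15.7 CPM in lymphoma was Fstl1, at 12.1 and 12.9 CPM in lymphoma, 24.3 and 19.95 CPM in doubly activated and 17.3 and 19.0 CPM in control libraries, and Dcn and Lum were at 0. Pdgfrb was at 2.17 and 2.05 CPM in lymphoma, with no count in doubly activated or control libraries (adjusted p = 1.38e-05 and 1.16e-05).

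In doubly activated cells 1 member was higher than in control (Col20a1) and 4 lower (Col11a2, Col27a1, Col4a5 and Col14a1), 15.6% of those tested beside 19.8% of all genes (10.5% higher, 9.3% lower). The members' median log2 was -0.41, or -0.55 over 23 members at their bound, and that of all genes 0.00. Of the 19 members that pass the filter without the Notch-labelled libraries 1 was higher and 4 lower, with a median log2 of -0.41. The share of 15.6% is thus set in part by the filter. Col11a2 was lower by log2 -0.997 ± 0.15 (adjusted p = 0.000498) and Col27a1 by log2 -1.86 ± 0.28 (adjusted p = 0.000534). The low-count calls were less stable: without control library 2, either doubly activated library, either Notch-labelled library or NF-kB-activated library 1 the count of 5 fell to 3. Col4a5 (3 and 1 counts in doubly activated, 6 and 11 in control libraries) and Col14a1 (2 and 7 counts, against 18 and 39) were the calls lost, at adjusted p of 0.0522 to 0.246 for Col4a5 and 0.0559 to 0.233 for Col14a1. Without doubly activated library 1 the log2 was -2.79 for Col4a5, beside -1.97 with all libraries, and -1.81 for Col14a1, beside -2.52, and without library 2 it was -3.78 for Col14a1. Col1a2, with 0.557 and 0.458 CPM in doubly activated and 0.615 and 0.870 CPM in control libraries, was not called (log2 -0.55 ± 0.49, adjusted p = 0.502), and Col6a1 had 2 and 1 counts, against none.

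In NF-kB-activated cells only Col11a2 and Col27a1 were called of the 32 members, both lower than in control, 6.25% beside 15.3% of all genes (8.72% higher, 6.6% lower). Col11a2 was lower by log2 -1.26 ± 0.15 (adjusted p = 0.000112) and Col27a1 by log2 -1.49 ± 0.27 (adjusted p = 0.00251). The members' median log2 was -0.24, or -0.19 over 25 members at their bound, and that of all genes 0.00. Of the 19 members that pass the filter without the Notch-labelled libraries 0 were higher and 2 lower, with a median log2 of -0.29. The share of 6.25% is thus set in part by the filter. Col1a2 had 13 and 13 counts in NF-kB-activated and 10 and 16 in control libraries, and Col6a1 had 2 and 3 counts, against 0 and 0 (adjusted p = 0.112).

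Of 11 matrix partner genes 1 was higher (Hspg2) and 1 lower (Nid1) in doubly activated cells against control, and 3 were higher (Hspg2, Nid1 and Matn2) in NF-kB-activated cells. That is 9.09% each in doubly activated cells, beside 10.5% of all genes higher and 9.3% lower. In NF-kB-activated cells it is 27.3% beside 8.72% of all genes higher. Hspg2, the basement membrane proteoglycan perlecan, had 493 and 531 CPM in doubly activated, 784 and 715 CPM in NF-kB-activated and 7.56 and 7.997 CPM in control libraries (adjusted p = 4.9e-11 and 2.8e-11). Nid1, the basement membrane linker nidogen, had 13.8 and 17.3 CPM in doubly activated, 53.6 and 40.9 CPM in NF-kB-activated and 25.8 and 30.5 CPM in control libraries (adjusted p = 0.00242 and 0.00434). Its usual basement membrane partners Col4a1 and Col4a2 were at 0 to 0.390 CPM in all 6 libraries. Of 8 receptor genes 1 was higher (Lair1) and 1 lower (Ddr1) in doubly activated cells, 12.5% each. In NF-kB-activated cells 2 were higher (Lair1 and Itgb1), 25%. Genes that were near 0 here and passed the filter only through the Notch-labelled libraries, such as Lama4 and Mrc2, count among those tested. The shares of the partner and receptor lists are therefore set in part by the filter. The collagen-binding inhibitory receptor gene Lair1 was at 41.5 and 54.5 CPM in doubly activated, 22.02 and 21.2 CPM in NF-kB-activated and 8.61 and 5.93 CPM in control libraries, and was called in both (adjusted p = 7.65e-07 and 8.95e-05). Ddr1 was at 0.0557 and 0.0654 CPM in doubly activated and 0.492 and 1.69 CPM in control libraries (adjusted p = 0.0025).

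The control libraries differed from each other. Fibrillar members with at least 20 counts had a median ratio of library 2 to library 1 of 1.37 over 4 genes, with intervals above 1 for Col11a2 (1.29, 1.12 to 1.504) and Col27a1 (1.36, 1.09 to 1.70), and the FACIT gene Col14a1 was at 1.92 (1.07 to 3.56). Macrophage genes had a median ratio of 4.74 over 10 genes, their sum being 51.8 CPM in library 1 and 232 CPM in library 2. Each comparison against control uses both libraries, and the part of this difference in the lower calls for Col11a2 and Col27a1 was not tested beyond leaving library 2 out, after which both calls held.

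Counts on a collagen gene were not always counts on a collagen message. Over the 8 libraries without the Notch-labelled pair, 14 members had at least 100 counts, and in 10 of these over 90% lay on protein coding transcripts, with 99.8% for Col20a1, 99.9% for Col1a1 and 92.4% for Col11a2. All counts of Col26a1 lay on a retained-intron transcript of 578 bases, so its values describe that transcript and no coding one. For Col27a1 30.5% of counts lay on the coding transcript, and 49.3% on a retained-intron transcript. Col7a1 (74.8%) and Col9a3 (76.2%) lay between. In Notch-labelled libraries 100% of Col1a1 and 99.7% of Col1a2 counts were on coding transcripts, and 73.3% of those of Col16a1. Col9a3, Col10a1 and Col18a1 overlap another gene in the annotation, and whether counting used strand is not stated in the labels or headers.

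**Figure D5:**
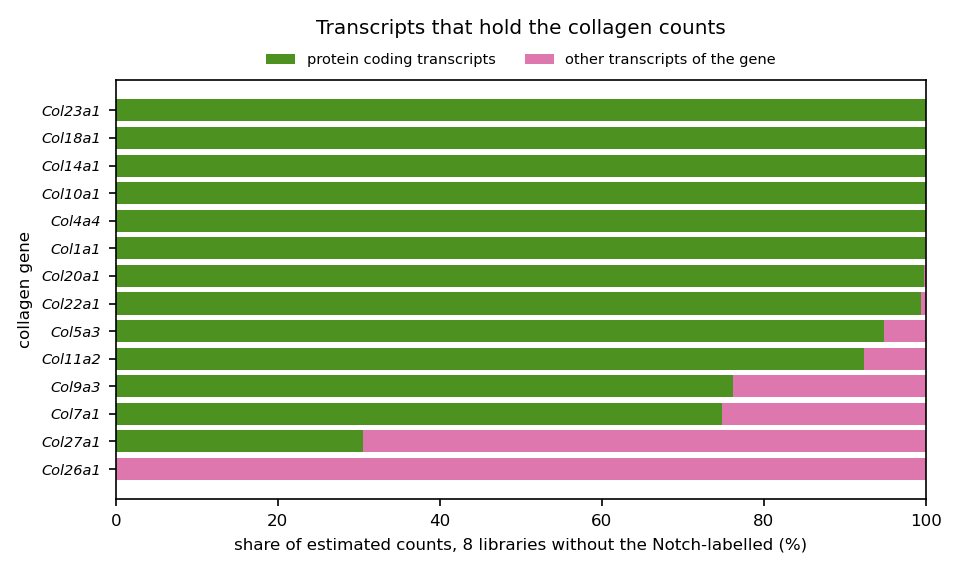
Share of estimated counts on protein coding and on other transcripts of each collagen gene (x axis, percent) for the 14 members with at least 100 counts over the 8 libraries other than the Notch-labelled. Col26a1 has no coding count, Col27a1 30.5%, and 10 genes over 90%.

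Between all 5 groups, 27 of the 32 members differed (84.4%, against 82.1% of all genes), led by Col1a2. Of the 32, 13 passed the filter only through the Notch-labelled libraries, and all of those were called. The share of 84.4% is thus set in part by the filter. The 5 that did not pass were Col4a4, Col10a1, Col15a1, Col18a1 and Col22a1. Without the Notch-labelled libraries 10 of the 19 members that could be tested differed, beside 9032 of 14524 genes (62.2%). Col22a1, a FACIT collagen, was the most even of those well above the detection limit, at 3.42 and 3.37 CPM in lymphoma, 3.06 and 4.06 CPM in doubly activated, 2.73 and 3.67 CPM in NF-kB-activated, 2.70 and 2.77 CPM in Notch-labelled and 2.83 and 3.16 CPM in control libraries (adjusted p = 0.791).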

How the data were processed

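The authors deposited 1 file per library with estimated counts per transcript, not normalized, and TPM, per the file headers. Kallisto 0.44.0 and build mm10 are named in the processing notes of the submitters. Depth and precision: 16380889 to 23102081 estimated counts, and intervals cover counting error only. Transcripts were matched to GENCODE M21 (1.09% to 1.38% of counts unmatched), summed per gene and rounded. The test was edgeR 4.0.16 under R 4.3.3 (filterByExpr, TMM, robust quasi-likelihood, 5 groups in 1 fit, 5 residual degrees of freedom), which left 15583 genes, checked on simulated data. Tests are two-sided, with Benjamini-Hochberg adjustment over all genes, called at 0.05. CPM is TMM-scaled.

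The members and gene lists were chosen with earlier results of these data known. Named were, per comparison, up to 8 collagens called with the smallest p, Col1a2, Col6a1, the 6 most abundant, 2 called members of each list and defining markers, with further members, list genes and Col22a1 named after their values were seen. Alternatives were another normalization, no filter, DESeq2 1.42.0, limma-voom (limma 3.58.1), the compared groups alone, a replicate block, summed TPM, the top collagen left out, each library left out and, added after seeing the data, coding transcripts only and both Notch-labelled libraries left out.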

Additional observations from a re-analysis of the deposited data

How the results depend on the processing

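For lymphoma against doubly activated cells, 13 collagens were called, 8 with DESeq2, 7 with limma-voom and 6 to 12 with 1 library left out. For doubly activated cells against control the count was 5, and 3 with DESeq2, with both Notch-labelled libraries left out, or with the replicate number as a block, and 3 to 6 with 1 library left out. With that block the counts were 9 for lymphoma against doubly activated, 8 for lymphoma against control, 2 for NF-kB-activated and 24 for Notch-labelled libraries against control. Same-numbered libraries of 10 pairs of groups deviated with r of -0.1408 to 0.0826 over 11167 genes. No large shared deviation was seen, but this cannot tell whether same-numbered libraries share an animal or batch. With 1 library left out, counts were 6 to 11 for lymphoma, 2 to 3 for NF-kB-activated and 21 to 27 for Notch-labelled against control, and 26 to 28 between all groups, where leaving out both Notch-labelled libraries gave 10. In summed TPM the log2 ratio was 0.3449 for lymphoma against doubly activated, -0.1797 for lymphoma against control, turning its sign, -0.5246 for doubly activated against control and 3.047 for Notch-labelled against control. Without Col1a2 it was 0.7333 for lymphoma against doubly activated and 3.488 for Notch-labelled against control. With 1 library left out it was 0.7093 to 0.7326 for lymphoma against doubly activated and, against control, 0.2061 to 0.4619 for lymphoma, -0.5148 to -0.259 for doubly activated, -0.6637 to -0.4079 for NF-kB-activated and 3.955 to 4.357 for Notch-labelled libraries. The causes of these shifts were not tested. Of 34 called single-gene results that were followed 8 lost their call in at least 1 alternative, and 0 turned direction. Other calls were not followed gene by gene. Among these were Col4a4, Col6a6, Col15a1 and Col23a1 in lymphoma against doubly activated cells. Depth limits what can be said of the 12 members too low to test.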
